A study of Mus musculus with 26 samples.

Results

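Apoptosis regulators were examined in single blastomeres of mouse 8-cell embryos, in which RNA and DNA of the same cell had been profiled by scRR-seq. The 9 genes were chosen by name for their role and by no rule on their values, though earlier results of these data were known. All 9 were found among the 55487 genes of the RNA table. They were the anti-apoptotic genes Bcl2, Bcl2l1, Bcl2l10 and Mcl1, the pore-forming effectors Bax, Bak1 and Bok, the BH3-only gene Bbc3 and the inhibitor of apoptosis gene Birc5. The embryos came from in vitro fertilization with gametes of wild-type C57BL/6 mice, carried no transgene or treatment, and were taken apart by hand. RNA columns were available for 9 cells, which were cells 1, 6 and 7 of embryo 1 and cells 2, 3, 5, 6, 7 and 8 of embryo 2. Each embryo was a single biological replicate, so that differences are described with the spread between cells and none was tested.

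Cells die by the mitochondrial pathway when effector proteins of the BCL2 family open the outer mitochondrial membrane and release cytochrome c, which leads to caspase activation. Anti-apoptotic members bind the effectors and hold them back, and BH3-only proteins relieve this block when a cell is stressed or its DNA is damaged. Cleavage-stage blastomeres live at first on RNA stored in the oocyte and then on their own transcripts, and apoptosis in mouse embryos is mainly known from the blastocyst.

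The identity of the cells and the state of the libraries were checked first. All 7 blastomere markers exceeded 1 TPM (a share of the RNA of a cell, corrected for transcript length and scaled to the same total in every cell) in all 9 cells, and the germline and early embryo gene Dppa3 lay between 1138 and 2169 TPM. Of 8 cumulus and granulosa cell markers, 4 (Has2, Inha, Fshr and Cyp19a1) were at 0 in all cells and 6 never exceeded 1 TPM, whereas Amhr2 ranged from 9.73 to 35.4 TPM and Ptx3 reached 6.13 TPM in a single cell. Summed sperm markers reached at most 1.62 TPM and summed blood cell markers at most 1.98 TPM. Between 11058 and 13319 genes per cell exceeded 1 TPM. The embryos differed in more than identity, since the share of bins called replicated was 0.0039% to 3.54% in embryo 1 and 62.4% to 80.5% in embryo 2, Xist was at least 139.95 TPM in every cell of embryo 1 and at most 0.90 TPM in every cell of embryo 2, and the mitochondrial share of TPM was 4.28% to 6.77% in embryo 1 and 5.98% to 18.2% in embryo 2. Effects of embryo, cell cycle position and sex cannot be told apart with 1 embryo of each kind. A technical split crossed the embryos. Sample titles closed with numbers from 11 to 17 (3 cells, embryo 1 cell 1 and embryo 2 cells 2 and 3) or from 20 to 25 (6 cells), and the sample list of the study gives the larger lysis volume to the first range and the smaller to the second. The first range had 12411 to 13319 genes per cell above 1 TPM and the second had 11058 to 11960.

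Most of the survival and effector RNA came from few genes. Mcl1, Bax, Birc5, Bok and Bcl2l1 were above 1 TPM in all 9 cells, Bcl2l10 and Bbc3 were found in some cells only, and Bcl2 and Bak1 were at or near 0. That made 5 of 9 genes (55.6%) above 1 TPM in every cell, beside 30.6% of 21897 protein-coding genes. Between 5 and 7 of the 9 genes exceeded 1 TPM in a cell.

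**Figure D1:**
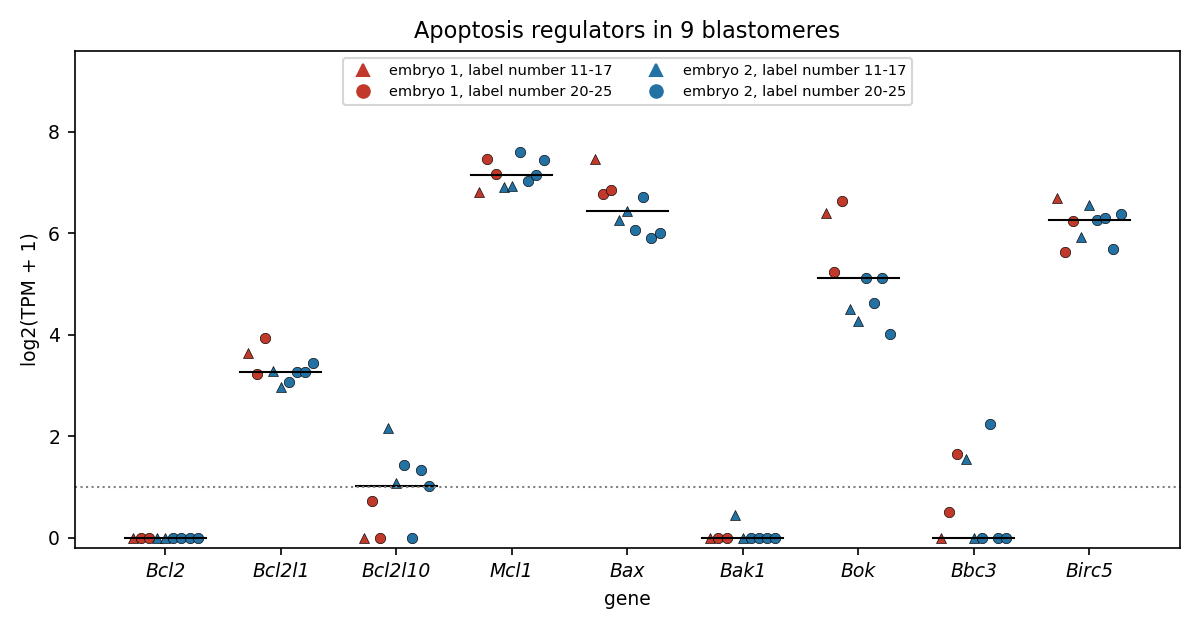
RNA level of each gene on the log2(TPM + 1) scale (y axis) in each of the 9 cells, with cells in the same order within each gene, embryo by colour and label number range by marker. The horizontal bars are medians over cells and the dotted line marks 1 TPM. Mcl1 has the highest median at 141 TPM, and Bok spans 15.2 to 98.8 TPM with its 3 embryo 1 cells highest.

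Mcl1 encodes a short-lived anti-apoptotic protein that embryos need in order to reach implantation, and lies at chr3:95658788-95663176 on the forward strand (GRCm38). Its level was 111 TPM in cell 1, 177 TPM in cell 6 and 143 TPM in cell 7 of embryo 1. In embryo 2 it was 119.6, 120.45, 193, 130.4, 141 and 174 TPM in cells 2, 3, 5, 6, 7 and 8. The cells of both embryos covered nearly the same span, with a median of 141 TPM. Ranked among the protein-coding genes within each cell, Mcl1 had a median percentile of 96.3 over the 9 cells. Its SD between cells was 0.28 on the log2(TPM + 1) scale, beside a median SD of 0.55 over 1823 genes with a mean from 50 to 200 TPM.

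Bcl2l1, which encodes BCL-XL (chr2:152780668-152831728, reverse strand), was 11.5, 8.33 and 14.4 TPM in embryo 1. In embryo 2 it was 8.72, 6.86, 7.38, 8.56, 8.63 and 9.81 TPM. It was steady from cell to cell, with an SD of 0.30 (log2), but its median of 8.63 TPM was far below that of Mcl1. Bcl2l10, a divergent anti-apoptotic gene best known from oocytes (chr9:75347758-75351632, forward strand), was 0, 0.64 and 0 TPM in embryo 1. In embryo 2 it was 3.46, 1.10, 1.71, 0, 1.53 and 1.04 TPM, so that it was listed at 0 in 3 of the 9 cells. Bcl2, the founding member of the family (chr1:106538178-106714274, reverse strand), was listed at 0 in all 9 cells. The same was true of 29.4% of protein-coding genes, and depth is not kept by TPM, so a lower limit of detection could not be given.

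Among the effectors, Bax (chr7:45461697-45466898, reverse strand) was the most abundant. It was 176, 108 and 115 TPM in embryo 1, and 75.5, 86.4, 65.8, 104, 59.3 and 63.0 TPM in embryo 2. All 3 cells of embryo 1 were above all 6 of embryo 2, although cell 6 of each embryo, at 108 and 104 TPM, lay close together. Bok encodes an effector that can act without the usual BH3-only triggers and that anti-apoptotic members bind poorly (chr1:93685660-93695764, forward strand). It was 83.7, 36.5 and 98.8 TPM in embryo 1, and 21.7, 18.2, 33.9, 23.6, 33.6 and 15.2 TPM in embryo 2. The cells of the embryos again did not overlap, with a narrow gap between cell 6 of embryo 1 and cells 5 and 7 of embryo 2. Bok also varied most among the 5 genes seen in every cell, with an SD of 0.91 (log2) over the 9 cells. The median SD was 0.87 over 13648 genes with a mean above 1 TPM. The SD of Bok includes the difference between the embryos, and its pooled SD within embryos was 0.55. Bak1, which in many tissues stands in for Bax (chr17:27019810-27029009, reverse strand), was listed at 0 in 8 cells and was 0.36 TPM in cell 2 of embryo 2. Its locus lies wholly within Ggnbp1 on the opposite strand, a gene with a median of 46.9 TPM here, and whether the reads were counted by strand is not given in the sources used here.

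Bbc3 encodes PUMA, a BH3-only protein through which p53 can trigger apoptosis (chr7:16308393-16318205, forward strand). It was 0, 0.43 and 2.15 TPM in embryo 1, and 1.93, 0, 0, 3.72, 0 and 0 TPM in embryo 2. Cells with and without signal occurred in both embryos. Birc5 encodes survivin, which is a caspase-binding family member and also a subunit of the chromosomal passenger complex that steers chromosome segregation (chr11:117849251-117855743, forward strand). It was 102, 48.6 and 74.9 TPM in embryo 1, and 59.9, 93.4, 75.6, 78.4, 50.9 and 82.0 TPM in embryo 2. Embryo 1 held both the highest and the lowest cell.

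Ordered by their medians, the genes ran Mcl1, Bax, Birc5, Bok, Bcl2l1 and Bcl2l10, followed by Bcl2, Bak1 and Bbc3 with medians of 0. Neighbours near the top were not separated by the spread between cells. Mcl1 was above Bax in 8 of 9 cells with a ratio of medians of 1.63, Bax was above Birc5 in 6 of 9 cells with a ratio of 1.14, and Birc5 was above Bok in 8 of 9 cells with a ratio of 2.25, while the ranges of each pair overlapped. Bok was above Bcl2l1 in all 9 cells and Bcl2l1 above Bcl2l10 in all 9 cells, with ratios of medians of 3.90 and 8.30 and ranges that did not overlap.

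The next question was whether the genes differed between the embryos. A gene was called when its mean log2(TPM + 1) differed by at least 1 and no cell of one embryo reached into the range of the other. Of the 6 genes with a mean above 1 TPM, Bok was called lower in embryo 2 and none was called higher. Over all 13648 genes with a mean above 1 TPM, 1.86% were called lower and 0.572% higher. Bok was lower in embryo 2 by a difference of -1.48 (log2), beside a pooled SD between cells of 0.55. The difference was -2.02 among cells numbered 11 to 17, where embryo 1 had 1 cell, and -1.22 among cells numbered 20 to 25, and it stayed between -1.92 and -1.21 when any single cell was left out. When each cell was rescaled without mitochondrial genes, whose share was higher in most cells of embryo 2, the difference was -1.39 but the cells overlapped, since cell 5 of embryo 2 then stood at 41.4 TPM and cell 6 of embryo 1 at 39.2 TPM, so that the call was lost.

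Bax was also lower in embryo 2, by a difference of -0.80 with a pooled SD of 0.33, which was short of a called difference. It was among the 2 of 6 genes whose embryo 2 cells were all below the embryo 1 cells, beside 2.51% of all genes, and it overlapped when each cell was centred on its own median. Within the number ranges the difference was -1.11 and -0.64. The other genes gave no such gap, and their cells overlapped. Mcl1 differed by 0.027 with a pooled SD of 0.30 (0.11 within cells 11 to 17 and -0.013 within cells 20 to 25). Birc5 differed by -0.0024 with a pooled SD of 0.39, and its values within the ranges, -0.45 and 0.22, had opposite signs. Bcl2l1 differed by -0.39 with a pooled SD of 0.24 (-0.52 and -0.33). Bcl2l10 differed by 0.93 with a pooled SD of 0.63 (1.61 and 0.59), but without cell 6 of embryo 2, where it was listed at 0, the difference was 1.17 and the gene was called higher. The value for Bcl2l10 also moved with the constant added before the logarithm, from 2.45 with 0.1 TPM to 0.16 with 10 TPM. The median difference of the 6 genes was -0.20, beside -0.039 over all genes.

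**Figure D2:**
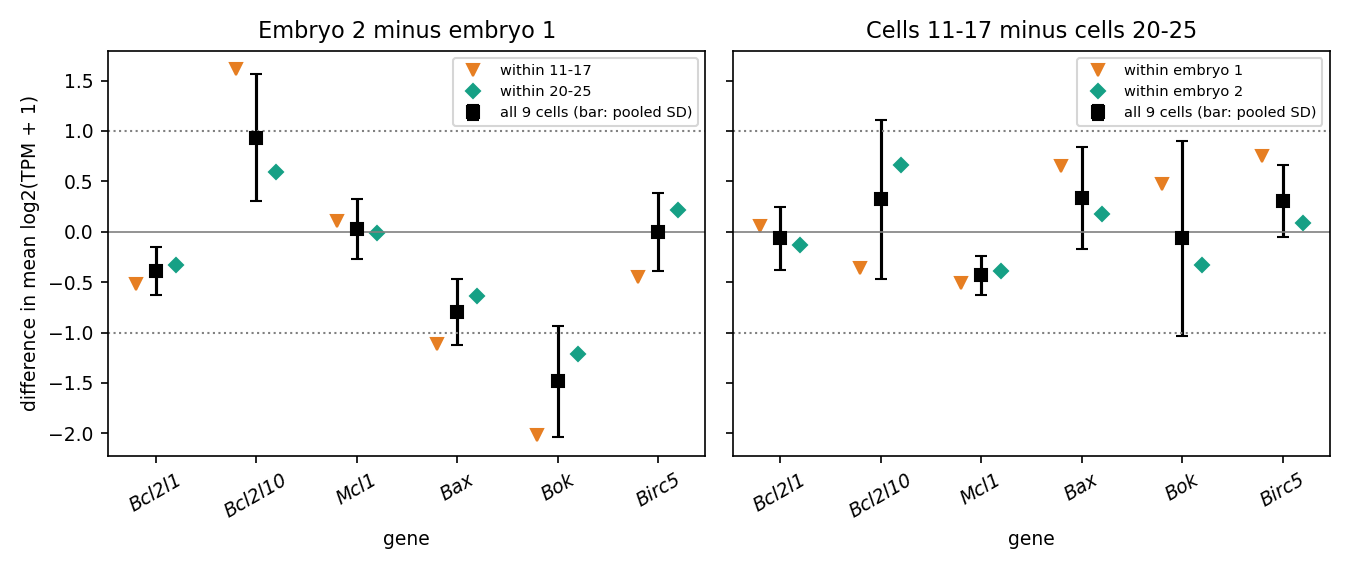
Differences in mean log2(TPM + 1) (y axis) for the 6 genes with a mean above 1 TPM, between embryos (left) and between label number ranges (right). Squares use all 9 cells with the pooled SD between cells as the bar, triangles and diamonds are the values within each range or each embryo, and dotted lines mark a 2-fold difference. Bok at -1.48 is the one square beyond them, and Mcl1 is negative in both embryos in the right panel.

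Between the label number ranges none of the 6 genes was called, beside 3.54% of all genes called higher and 0.777% called lower in cells 11 to 17. After centring each cell on its median, the split over all genes moved from 483 higher and 106 lower to 248 higher and 252 lower. Mcl1 was the gene whose cells did not overlap between ranges, a pattern in this direction shown by 1.24% of all genes. It was 111, 119.6 and 120.45 TPM in cells 11 to 17 and 130.4 to 193 TPM in cells 20 to 25. The difference was -0.43 with a pooled SD of 0.19, -0.51 within embryo 1 and -0.39 within embryo 2, against a median of 0.29 over all genes and of 0.12 over the 6 genes. Bax differed by 0.34 with a pooled SD of 0.51, Birc5 by 0.31 with 0.35, Bcl2l10 by 0.32 with 0.79, Bcl2l1 by -0.066 with 0.32 and Bok by -0.066 with 0.97, all with overlapping cells. Within embryo 1 alone, where cell 1 stood against 2 cells, Birc5 differed by 0.75 and Bax by 0.65, beside 0.084 and 0.18 within embryo 2.

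The balance of the opposing groups was then taken within each cell, where the scaling of the cell cancels. Summed anti-apoptotic RNA ranged from 123 to 202 TPM, and Mcl1 made up 90.6% to 95.5% of it. Summed effector RNA ranged from 144.8 to 259.5 TPM in embryo 1, while in embryo 2 it ranged from 78.2 to 128 TPM. Over all 9 cells, Bax made up 53.7% to 82.6% of the effector RNA and Bok 17.4% to 46.3%. The ratio of the sums was 0.473, 1.28 and 0.739 in embryo 1, and 1.35, 1.23, 2.03, 1.09, 1.63 and 2.37 in embryo 2. Effector RNA therefore exceeded anti-apoptotic RNA in 2 of 3 cells of embryo 1 and in none of the 6 cells of embryo 2. On the log2 scale the 3 cells of embryo 1 averaged -0.38 ± 0.72 (SD) and the 6 cells of embryo 2 averaged 0.64 ± 0.43 (SD). Their difference of 1.02 compared with a pooled SD of 0.53, but cell 6 of embryo 1 lay within the range of embryo 2, so that it was not called. It was 1.44 within cells 11 to 17 and 0.81 within cells 20 to 25. Leaving out cells one at a time gave 0.67 to 1.39, with the lowest value without cell 1 of embryo 1 and the highest without cell 6 of embryo 1. Without Mcl1 the difference was 0.78, and without Bax it was 1.53. Between the label number ranges the log2 ratio differed by -0.62 with a pooled SD of 0.69, lower in cells 11 to 17. This range difference was -1.04 within embryo 1 and -0.41 within embryo 2, and it was not called. RNA sums say nothing of protein, and the proteins of these genes differ in stability.

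**Figure D3:**
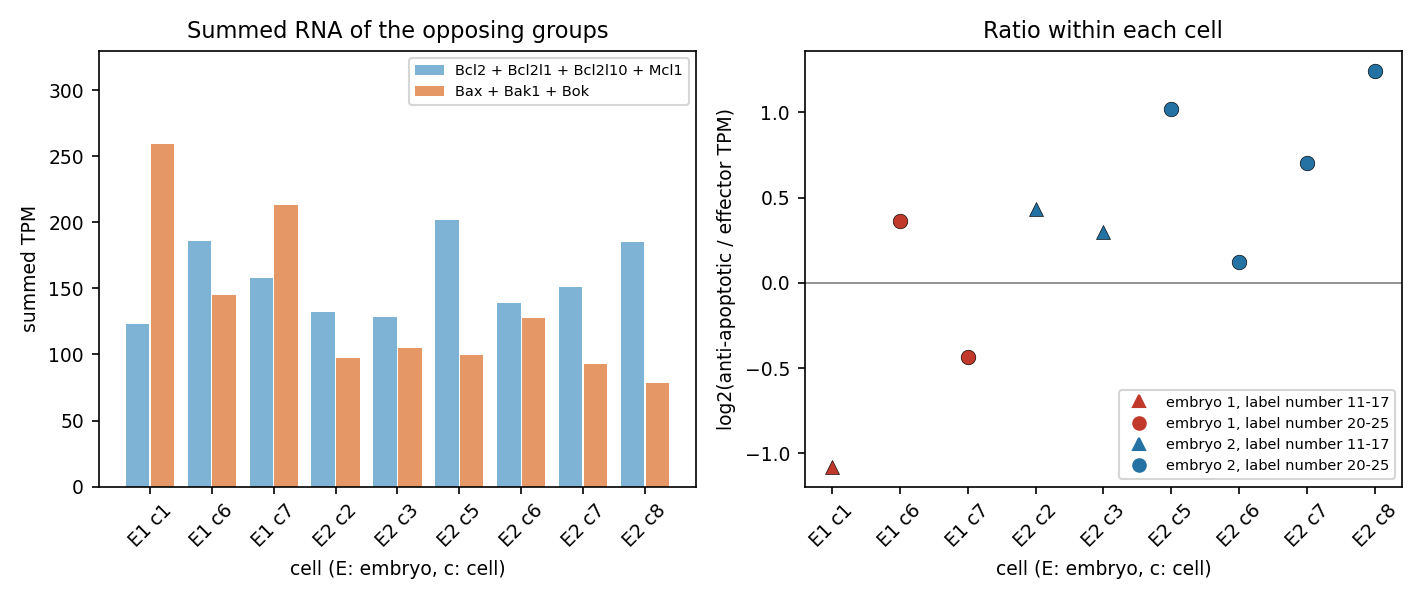
Left, summed TPM (y axis, from 0) of the 4 anti-apoptotic genes and of the 3 effectors in each cell. Right, log2 of their ratio in each cell, with embryo by colour and label number range by marker. Embryo 1 cells 1 and 7 lie below 0, and embryo 1 cell 6 at 0.36 lies among the embryo 2 cells, which run from 0.12 to 1.25.

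Full-length coverage allowed transcript forms to be examined for the 5 genes above 1 TPM in every cell. Assignments of reads to transcripts in single cells are estimates, and coverage of embryo libraries made with the smaller lysis volume leans to the 3′ end. All Mcl1 RNA was assigned to Mcl1-201, which encodes the anti-apoptotic protein of 331 residues, and the other annotated form was at 0 in all cells. For Birc5, a mean of 99.0% (96.0% to 100%) was assigned to Birc5-201, which encodes survivin of 140 residues. Birc5-202, which reads on into the intron and encodes 121 residues, was above 0 in 6 cells and reached 2.39 TPM. The sequences below, read from GENCODE M21 transcripts, show where the main and the second form of Birc5 and of Bax part, the only such point in each pair. The last shared bases are in lower case and the first bases past the branch point are in capitals.

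Birc5-201 (chr11, forward strand, from 117852780 on to the exon at 117855225): gccaagaacaaaattGCAAAGGAGACCAAC

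Birc5-202 (chr11, forward strand, from 117852780 on to 117852781): gccaagaacaaaattGTATGTATGATTGAG

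Bax-201 (chr7, reverse strand, from 45463399 on to the exon at 45461966): gaccagggtggctggGAAGGCCTCCTCTCC

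Bax-205 (chr7, reverse strand, from 45463399 on to the exon at 45461962): gaccagggtggctggGCCTCCTCTCCTACT

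The Bax forms differ by a start of the next exon that lies 4 bases further on, which shifts the reading frame. Bax-201, which encodes the protein of 192 residues, took a mean of 83.6% of the Bax RNA, from 67.4% to 92.6% over cells. Bax-205, annotated with 171 residues, was above 0 in 4 cells, at 17.4 TPM in cell 1 and 27.2 TPM in cell 6 of embryo 1 and at 13.9 TPM in cell 6 and 13.7 TPM in cell 7 of embryo 2. It thus occurred in both embryos and both label number ranges. Bax-203, whose coding sequence is annotated as incomplete, was above 0 in 7 cells and reached 9.03 TPM. Bax-202, annotated with 114 residues, was above 0 in 3 cells and reached 20.4 TPM in cell 1 of embryo 1.

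Bok-201, which encodes 213 residues, took a mean of 91.8% of the Bok RNA, with 80.3% in cells 11 to 17 and 97.6% in cells 20 to 25. The lowest share, 58.1%, was in cell 3 of embryo 2, where 7.64 TPM were assigned to the noncoding Bok-202. In cell 1 of embryo 1, 14.5 TPM (17.3%) were assigned to Bok-204, annotated with 131 residues. Since Bok-201 alone was at least 36.5 TPM in each cell of embryo 1 and at most 33.6 TPM in each cell of embryo 2, its cells also did not overlap between the embryos. For Bcl2l1, all RNA was assigned to Bcl2l1-201 (BCL-XL, 233 residues) in 7 cells. In cells 2 and 8 of embryo 2, 3.65 and 8.06 TPM were assigned to Bcl2l1-204, a fragment with an incomplete coding sequence, which left a share of 17.8% for Bcl2l1-201 in cell 8. Both annotated forms with 209 residues, Bcl2l1-205 and Bcl2l1-206, were at 0 in all cells.

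**Figure D4:**
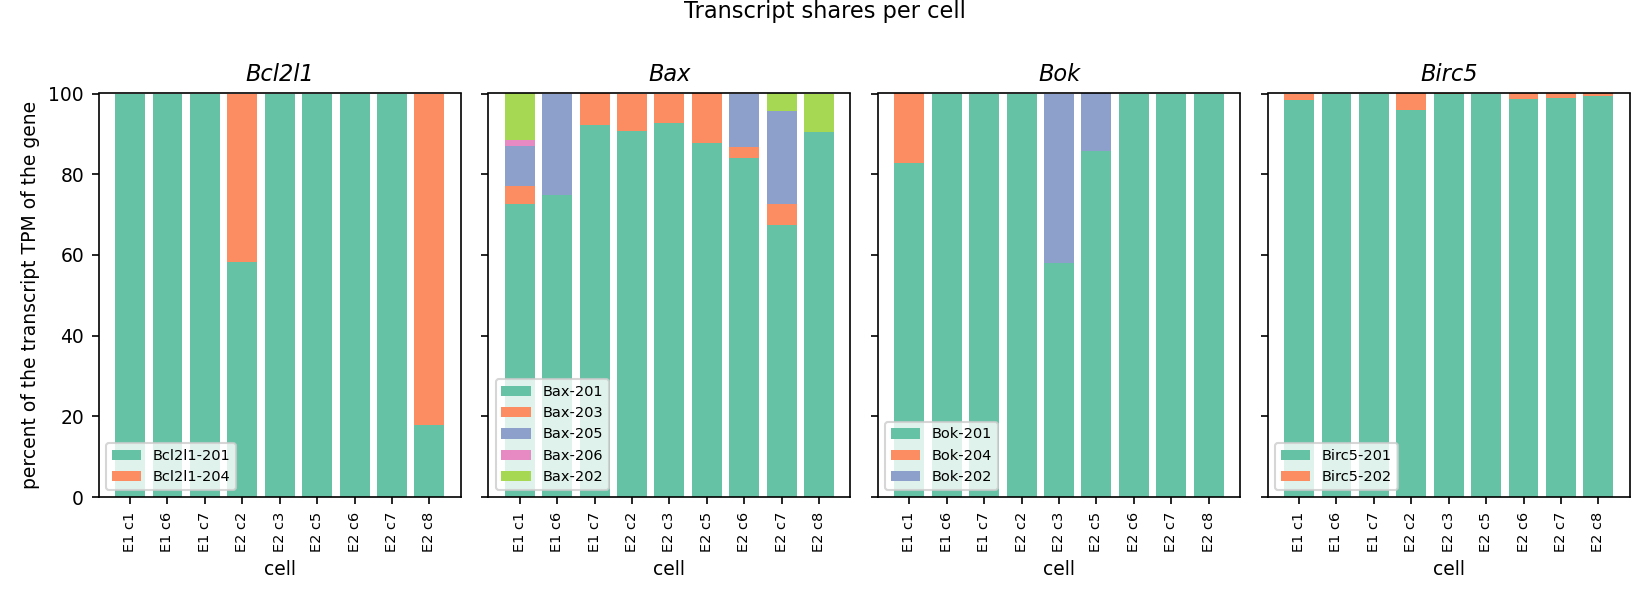
Percent of the transcript TPM of each gene (y axis, from 0 to 100) assigned to each annotated transcript in each cell, for Bcl2l1, Bax, Bok and Birc5. Only transcripts above 0 in at least 1 cell are drawn, and the lowest block is the main form, which falls to 17.8% for Bcl2l1 in cell 8 of embryo 2.

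Replication states of the same cells gave the DNA side of each locus. States are called from copy number in 40-kb bins, as 1 for replicated and -1 for unreplicated, so that replication and a gain of copies cannot be told apart. A cell that had finished replication has a uniform copy number as a cell before replication does, and the study places the cells of embryo 1 in G1 or G2/M, so that a state of -1 in embryo 1 does not show that a locus was still to be copied. In embryo 2, 6 of the 9 loci were replicated in all 6 cells, beside 72.7% of 11514 expressed genes and 48.7% of all bins with a state. The 9 loci include Bcl2, Bak1 and Bbc3, whose mean RNA levels were below 1 TPM. Of 54 pairs of locus and cell, 51 were replicated, beside 80.5% (cell 6) to 97.1% (cell 7) of expressed genes in each cell. The exceptions were Bcl2l1 and Bak1 in cell 6, the cell of embryo 2 with the lowest share of bins called replicated (62.4%), and Mcl1 in cell 5. Mcl1 RNA in cell 5 was 193 TPM, the highest of the 9 cells, while its locus was called unreplicated. Bcl2l1 RNA in cell 6 was 8.56 TPM, within the range of the other cells of embryo 2. The Bcl2 locus, whose RNA was listed at 0, was replicated in all 6 cells.

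In embryo 1 all loci were called unreplicated in all 3 cells with the exception of Bax in cell 1. The Bax bin belonged to a block of 6 bins called replicated (chr7:45280001-45520000), and chromosome 7 held 1438 of the 1838 bins called replicated in this cell. The study excepts regions with chromosomal abnormalities from the uniform copy number of embryo 1 cells. Whether the state of these bins reflects replication or a gain of copies was not tested. Bbc3, on the same chromosome, was called unreplicated there. Cell 1 also had the highest Bax RNA of the 9 cells, 0.65 (log2) above the mean of the other embryo 1 cells. The corresponding median was 0.58 over 321 chromosome 7 genes called replicated in that cell, 0.45 over 673 chromosome 7 genes called unreplicated and 0.29 over all genes. Cell 1 was also the only embryo 1 cell in the range from 11 to 17, and the part of the DNA state in its Bax level was not tested. Without cell 1, the embryo difference in Bax was -0.58.

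**Figure D5:**
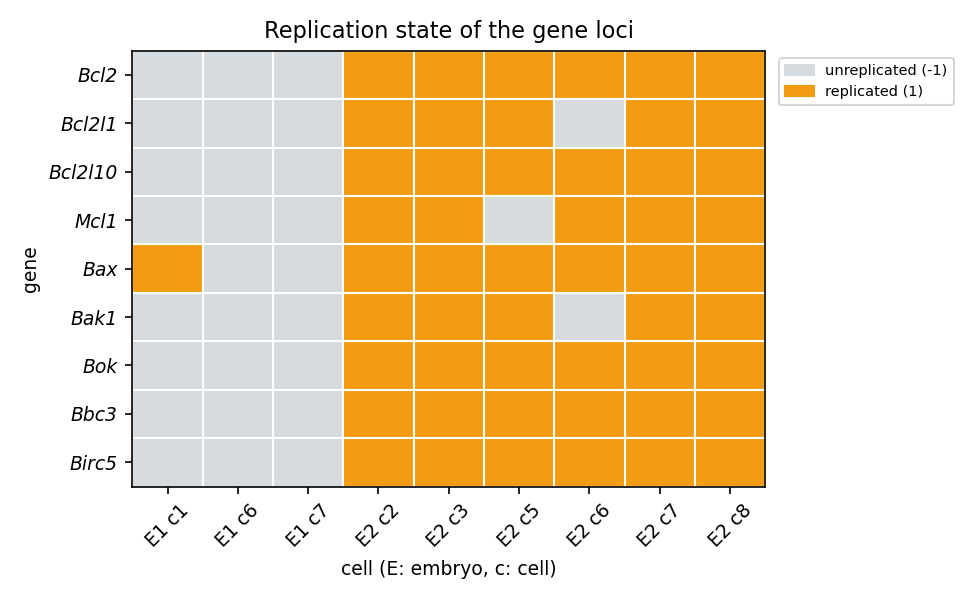
Replication state of each locus (rows) in each of the 9 cells (columns), from the sign of the mean state over the 40-kb bins that overlap the gene. Orange is called replicated, a state that a gain of copies can also give, and grey is called unreplicated. Embryo 2 has 51 of 54 orange fields, beside 80.5% to 97.1% of expressed genes replicated in each of its cells. Bax in cell 1 is the only orange field of embryo 1.

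The wider death machinery was examined in 9 lists of 50 further genes. Of these, 31 were above 1 TPM in all 9 cells, 41 had a mean above 1 TPM and 5 were at 0 in all cells. The genes at 0 were Bcl2a1a, Bcl2a1b and Bcl2a1d, which are anti-apoptotic genes of blood cells, the BH3-only gene Bik and the death receptor gene Fas. Between embryos 1 of the 41 genes was called higher (2.44%, beside 0.572% of all genes) and 2 were called lower (4.88%, beside 1.86%). The median difference was 0.0031.

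Of the other anti-apoptotic genes, 1 of 4 had a mean above 1 TPM. This was Bcl2l2 (BCL-W), with a median of 4.66 TPM and a range from 0.34 to 6.35 TPM. Of 7 other BH3-only genes, 4 were above 1 TPM in all cells. The most abundant were Bad, at 13.9 to 62.5 TPM, and Bcl2l11 (BIM), at 2.23 to 32.7 TPM, both with medians above that of Bbc3. Only the 4 genes with a mean above 1 TPM could be called, and none of them was called between embryos or ranges.

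Of the other inhibitor of apoptosis genes, all 4 had a mean above 1 TPM and none was called. Birc6, a giant ubiquitin ligase, had a median of 83.3 TPM and Birc3 one of 59.4 TPM. Of the partners of survivin in the chromosomal passenger complex, 4 of 4 were above 1 TPM in all cells and none was called. Incenp ranged from 77.1 to 158 TPM and Cdca8 (borealin) from 50.6 to 81.8 TPM, ranges that overlapped that of Birc5. Of the 3 genes that control turnover of the MCL1 protein by ubiquitin, 2 had a mean above 1 TPM and neither was called. The ligase gene Huwe1 had a median of 59.2 TPM and the deubiquitinase gene Usp9x one of 32.2 TPM.

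Of the 5 mitochondrial death factors, all had a mean above 1 TPM and 2 were called lower in embryo 2. Aifm1, an oxidoreductase that can move to the nucleus in dying cells, was 35.8, 26.7 and 27.5 TPM in embryo 1 but 4.43 to 21.1 TPM in embryo 2. Its difference was -1.09 with a pooled SD of 0.62. It fell short of a call at -0.96 without cell 1 of embryo 1, at -0.81 without cell 8 of embryo 2 and at -0.73 with a constant of 10 TPM. The embryos also differed in Xist, and the part of sex in the Aifm1 difference was not tested. Endog, a mitochondrial nuclease, was 52.9, 43.9 and 39.3 TPM in embryo 1 but 3.23 to 35.7 TPM in embryo 2. Its difference was -1.39 with a pooled SD of 0.93. Its call was lost at -0.98 without cell 5 of embryo 2 and at -0.97 with a constant of 10 TPM, and the cells overlapped after rescaling without mitochondrial genes. Diablo, an antagonist of inhibitor of apoptosis proteins, had the highest median of the list at 51.3 TPM and differed by 0.10. Htra2, a mitochondrial protease, was called higher in cells 11 to 17, by 1.88 with a pooled SD of 0.59, at 46.5 to 123 TPM beside 10.8 to 37.0 TPM, and its cells overlapped after centring.

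Of 7 genes of the apoptosome and caspases, 6 had a mean above 1 TPM and none was called. Casp6, an executioner caspase gene, had a median of 47.7 TPM and ranged from 16.4 to 101 TPM. Of 7 death receptor and adaptor genes, 1 was above 1 TPM in all cells, and none of the 6 with a mean above 1 TPM was called. Tnfrsf10b (a TRAIL receptor) had a median of 22 TPM and the adaptor gene Tradd one of 3.90 TPM.

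All 9 genes of the list of p53 and its targets were above 1 TPM in all cells. Between embryos 1 of the 9 was called, and the median difference over the list was 0.18. Ccng1 (cyclin G1), a p53 target, was 13.3, 20.1 and 22 TPM in embryo 1 but 41.9 to 81.7 TPM in embryo 2, and was called higher in embryo 2. Its difference was 1.57 with a pooled SD of 0.36, 1.89 within cells 11 to 17 and 1.41 within cells 20 to 25, and it was called with each constant, under each scaling and without each single cell. Mdm2, the ubiquitin ligase that limits p53, was 24.4, 6.48 and 39.96 TPM in embryo 1 but 24.5 to 68.0 TPM in embryo 2, with a difference of 1.23, a pooled SD of 0.84 and overlapping cells. Trp53 itself differed by -0.14 between embryos, with a pooled SD of 0.70. It was called higher in cells 11 to 17, by 1.13 with a pooled SD of 0.36, at 28.1 to 35.9 TPM beside 8.82 to 20.1 TPM, a call that was lost after centring at 0.90 and with a constant of 10 TPM at 0.79. Over the 41 genes, 4.88% were called higher and 0 lower between the ranges, beside 3.54% and 0.777% of all genes, with a median of 0.32.

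The genes whose profiles over the 9 cells were closest to the most abundant members were found by the root mean square (RMS) difference of centred log2(TPM + 1) values. Vapa and Cnbp were closest to Mcl1, with RMS differences of 0.15 and 0.17 beside a median of 0.89 over all genes. Vmn2r86 and Pex6 were closest to Bax, with 0.17 and 0.20 beside 0.93, and both were low, with medians of 3.93 and 5.62 TPM. Mthfd1l and Acbd6 were closest to Birc5, with 0.16 and 0.19 beside 0.90. The named genes were picked as the closest of all genes, so that their RMS differences lie below the median by choice. Each profile rests on 9 cells of 2 embryos, and genes with little spread are close to any flat profile.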

How the data were processed

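RNA and DNA of the same blastomeres were measured by scRR-seq. The authors deposited TPM values per gene and per transcript, made with ramdaq (Hisat and RSEM, GENCODE M25) from reads set to a common number per cell, without pooling. They also deposited a replication state score per 40-kb bin, made with bwa 0.7.17-r1188 (submitters' processing notes) on mm10 and the hidden Markov model of AneuFinder. Neither value keeps depth, so no counting interval or floor was computed. RNA is from the bead supernatant and mainly cytoplasmic.

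Of 13 cells in the labels, 9 had columns, and 4 were not analysed here. Each table held 14 further columns without a label of this series, which were not used. RNA headers all named the same embryo and cell, so columns were assigned by the closing title number and the embryo was checked by Xist. No pair of columns held equal values. Coordinates, transcripts and sequences are from GENCODE M21 (GRCm38), in which 55141 of 55487 gene identifiers were found without version suffix.

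Differences are of mean log2(TPM + 1), with the pooled SD between cells, which understates changes of low genes. A call needed a difference of 1 and groups without overlap, over genes with mean TPM > 1. Cells of an embryo are not replicates of a condition, so no test was run. The calculation was tested on simulated data with independent noise in each cell. The planted differences of 3 (log2) were larger than any named here. The members, lists and measures were chosen with earlier results of these data known. All members are named, and of each other list the top 2 by median TPM and any called gene, with the 2 closest profiles for each of the 3 most abundant members. A gene that this rule would name is not reported here. Other genes at 0 and examples such as Xist, Ptx3 and Ggnbp1 were named after their values were seen. Alternatives were constants of 0.1 and 10 TPM, other filters, rescaling without mitochondrial genes, centring per cell, and leaving out each cell. Python 3.11.15, numpy 2.4.6, pandas 2.3.3 and matplotlib 3.10.9 were used.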

Additional observations from a re-analysis of the deposited data

Results flagged for a closer look

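Bak1 was 0.36 TPM in cell 2 of embryo 2 and listed at 0 in the other 5 cells of that embryo, which singled it out as a cell far from the others. With the other 5 cells tied at 0, any value above 0 would have been singled out, so that nothing is read from it.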

How the results depend on the processing

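The number of genes called between embryos was 1 (Bok). It was 0 after rescaling without mitochondrial genes, where the Bok cells overlapped, and 3 within cells 11 to 17 (Bcl2l10, Bax and Bok), where embryo 1 has 1 cell. Leaving out each cell in turn gave 1 to 2, with 2 without embryo 2 cell 6, where Bcl2l10 joined. No direction reversed among the values called. All other alternatives for the number called between ranges (0, by fold and overlap only), the levels, the ratio, the transcript shares and the replication states moved by less than the spread between cells or by less than 1.5 times, as did the lists with a constant of 0.1 TPM and without a filter. Of the list genes called, Aifm1, Endog and Trp53 lost their call with a constant of 10 TPM, Endog after rescaling without mitochondrial genes, and Trp53 and Htra2 after centring. Over all genes, the 332 called between embryos became 117 with a constant of 10 TPM and 209 with a mean above 5 TPM, and the 589 called between ranges became 244 with a constant of 10 TPM. The share called higher between embryos went from 23.5% to 33.5% after centring, and between ranges from 82.0% to 49.6%. Centring moved the median of all genes between ranges by -0.22, and the Mcl1 difference there to -0.66. The causes were not tested. No paired analysis was possible because the cell numbers that the embryos share are only names and no test was run. The limits are 1 embryo per group, single-cell TPM without depth, values at 0 that can be missed RNA, and estimated transcript shares.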
